A study of Mus musculus with 12 samples.

Results

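Among the genes measured by probes of their own on arrays of mouse oocyte RNA, 74 encode transporters, pumps and channels or carry the names of these families, out of 3089 named genes in all. They were chosen by symbol alone: the Slc carriers except the mitochondrial Slc25a family, the Abca to Abcg families, and genes beginning with Kcn, Trpc, Trpm, Trpv, Aqp, Clcn, Atp1, Atp2 or Atp6v. Each was measured by probes that list that gene and no other, 96 probes in all, and probes of one gene were averaged. The rule takes names and not places in the cell, so several members work elsewhere or move nothing: the vacuolar proton pump, Clcn7, Slc35a1, Slc35b2 and Abcd3 belong to internal membranes, Abce1 and Abcf1 act with ribosomes, Trpc4ap is an adaptor protein, and Kcnq1ot1 is a long noncoding RNA. No aquaporin and no subunit of the sodium-potassium pump was measured by a probe of its own.

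Each of the study's 12 two-colour arrays held oocyte RNA of aged mice in one dye and oocyte RNA of young mice in the other. There were 3 pairs of RNA: pair 1 joined aged RNA 1 with young RNA 1, pair 2 joined aged RNA 2 with young RNA 5, and pair 3 joined aged RNA 3 with young RNA 2. Every pair was labelled 2 times and run with the dyes both ways round, which gave 4 arrays that counted as 1 replicate. The sources used here do not give ages, strain, or numbers of animals and oocytes. The p-values therefore reflect how far these 3 pairs lie apart, and that spread may be technical.

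Values are log2 ratios, aged RNA over young, with each array centred on its median and the sign turned where the aged RNA carried Cy3. The direction is not settled: Cy5 over Cy3 was assumed, and the opposite convention turns every sign. The ratio holds no level, so members are not compared in abundance. The number of arrays limits the precision, and the signal behind each ratio is unknown. In bulk RNA, fewer cells of a type and less RNA per cell cannot be told apart.

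Transport proteins set what enters and leaves a cell. Pumps spend ATP to build ion gradients, secondary carriers draw on those gradients to move amino acids, sugars, metals and vitamins, and channels let ions flow down them. In the oocyte, calcium pumps and calcium-permeable channels such as TRPM7 shape the calcium signals of fertilization, and zinc carriers supply the metal that the maturing egg stores and later releases. Much of the oocyte's supply of amino acids and energy substrates reaches it from cumulus cells through gap junctions.

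The promoters of a pair of members are shown because the results below turn on these genes and RefSeq gives them a start site. Trpm7 was below 0 on every array, and Slc35f2 was the one member whose pairs differed. Each line gives 150 bases upstream of the start, 5′ to 3′ along the gene, from RefSeq on GRCm38.p6. They lie at chr2:126876262-126876411 on the minus strand for Trpm7 and at chr9:53771385-53771534 on the plus strand for Slc35f2. Capitals mark the match to CACGTG (the core of the E-box read by basic helix-loop-helix factors) in Trpm7, and the match to GGGCGG (the GC box read by Sp factors) in Slc35f2, where it stands on the opposite strand and is read as CCGCCC.
Trpm7: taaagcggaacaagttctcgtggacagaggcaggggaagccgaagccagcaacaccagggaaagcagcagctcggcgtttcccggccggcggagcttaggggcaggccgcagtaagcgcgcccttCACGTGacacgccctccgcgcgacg
Slc35f2: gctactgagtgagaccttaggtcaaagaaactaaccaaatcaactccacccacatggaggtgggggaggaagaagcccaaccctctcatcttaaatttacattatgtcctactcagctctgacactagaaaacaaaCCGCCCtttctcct
The RefSeq table held 82 promoters of 56 members. Within 250 bases upstream of the start, on either strand, CACGTG was found in 8.54% of them, beside 6.02% of the table's 32851 full-length promoters. Member promoters were not filtered by length. GGGCGG was found in 47.6%, beside 32.7% of the full-length promoters. TATAAA, the TATA box, was found in 6.1%, beside 12.4%, and CCAAT in 23.2%, beside 33.8%. No motif contains another. The shares are per promoter, so a gene with several promoters, such as Slc29a1, counts more than once. They describe letters in the windows and no binding was measured.

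Over the whole series, the arrays' spread ran from an SD of 0.391 to 1.23 on the log2 scale, and the widest was the array of pair 1 from labelling 2 with aged RNA in Cy3. Arrays of one dye orientation from different pairs correlated at 0.0123 to 0.482 over all probes. Of the oocyte genes listed as markers, 4 had probes of their own, with means from -1.18 to 0.62 and pair means of -0.66, 0.06 and -0.58. The lowest was Zp2, a zona pellucida protein, at -1.69, 0.56 and -2.41 in the 3 pairs. Kit lay at -0.95, -0.87 and -0.29, Bmp15 at -0.85, 0.06 and -0.14, and Dppa3 at 0.85, 0.47 and 0.53. The 3 cumulus or granulosa markers measured lay between -0.15 and 0.09, and the 4 blood or immune markers between -0.02 and 0.36. None of these 11 passed the adjusted test, and a ratio does not show whether a marker was present. Their part in the results was not tested.

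As a group, the members did not move to one side. Of the 74, 35 had a mean above 0 and 39 below, which is 52.7% below, beside 49.9% of all named genes. The median over members was -0.0054, beside 0.00055 for all named genes, and the pair medians were 0.08, -0.07 and 0.02. Without centring, 71.6% of the members lay below 0 and their median was -0.12, while the median of all rows shifted by -0.115. The members' means ran from -0.71 for Slc6a15 to 0.48 for Kcnk10, within the range of -1.54 to 1.85 over all named genes. No member lay beyond 1 on either side, where 11 of the named genes did.

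**Figure D1:**
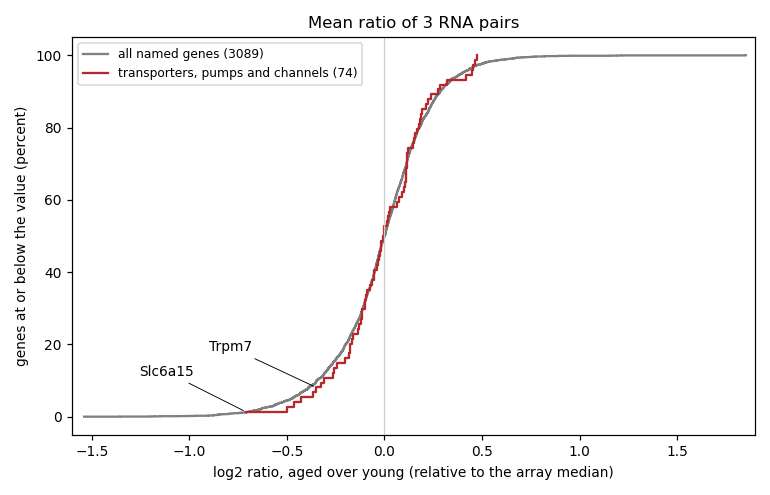
Cumulative share of genes (percent, vertical axis) at or below each mean log2 ratio of aged over young (horizontal axis, mean of 3 RNA pairs), for the 74 members and for all 3089 named genes. The curves cross 50% near 0, at medians of -0.0054 and 0.00055.

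None of the 74 members passed limma's test over the 3 pairs at a Benjamini-Hochberg adjusted p under 0.05, and of all 21370 rows tested 0% did. At an unadjusted p under 0.05 there were 2 members, Slc6a15 below 0 and Trpc4ap above, which is 2.7%, beside 7.67% of the named genes. The lowest adjusted p among members was 0.574, for Slc6a15, and every other member was at 0.716 or above. The 95% confidence interval of a member's mean had a median half-width of 0.374, from 0.306 to 1.18. It lay within 1 of 0 on both sides for 68 members, so for these a 2-fold difference in either direction was outside the interval. A mean of 1 sign in all 3 pairs was found in 25 members, 12 above and 13 below, which is 33.8%, beside 32.7% of the named genes. The sign was the same on all 12 arrays for 2 of the 72 members with a value on each array, beside 1.52% of the named genes. Both, Slc6a15 and Trpm7, were below 0, where 1.09% of the named genes were below on all 12.

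**Figure D2:**
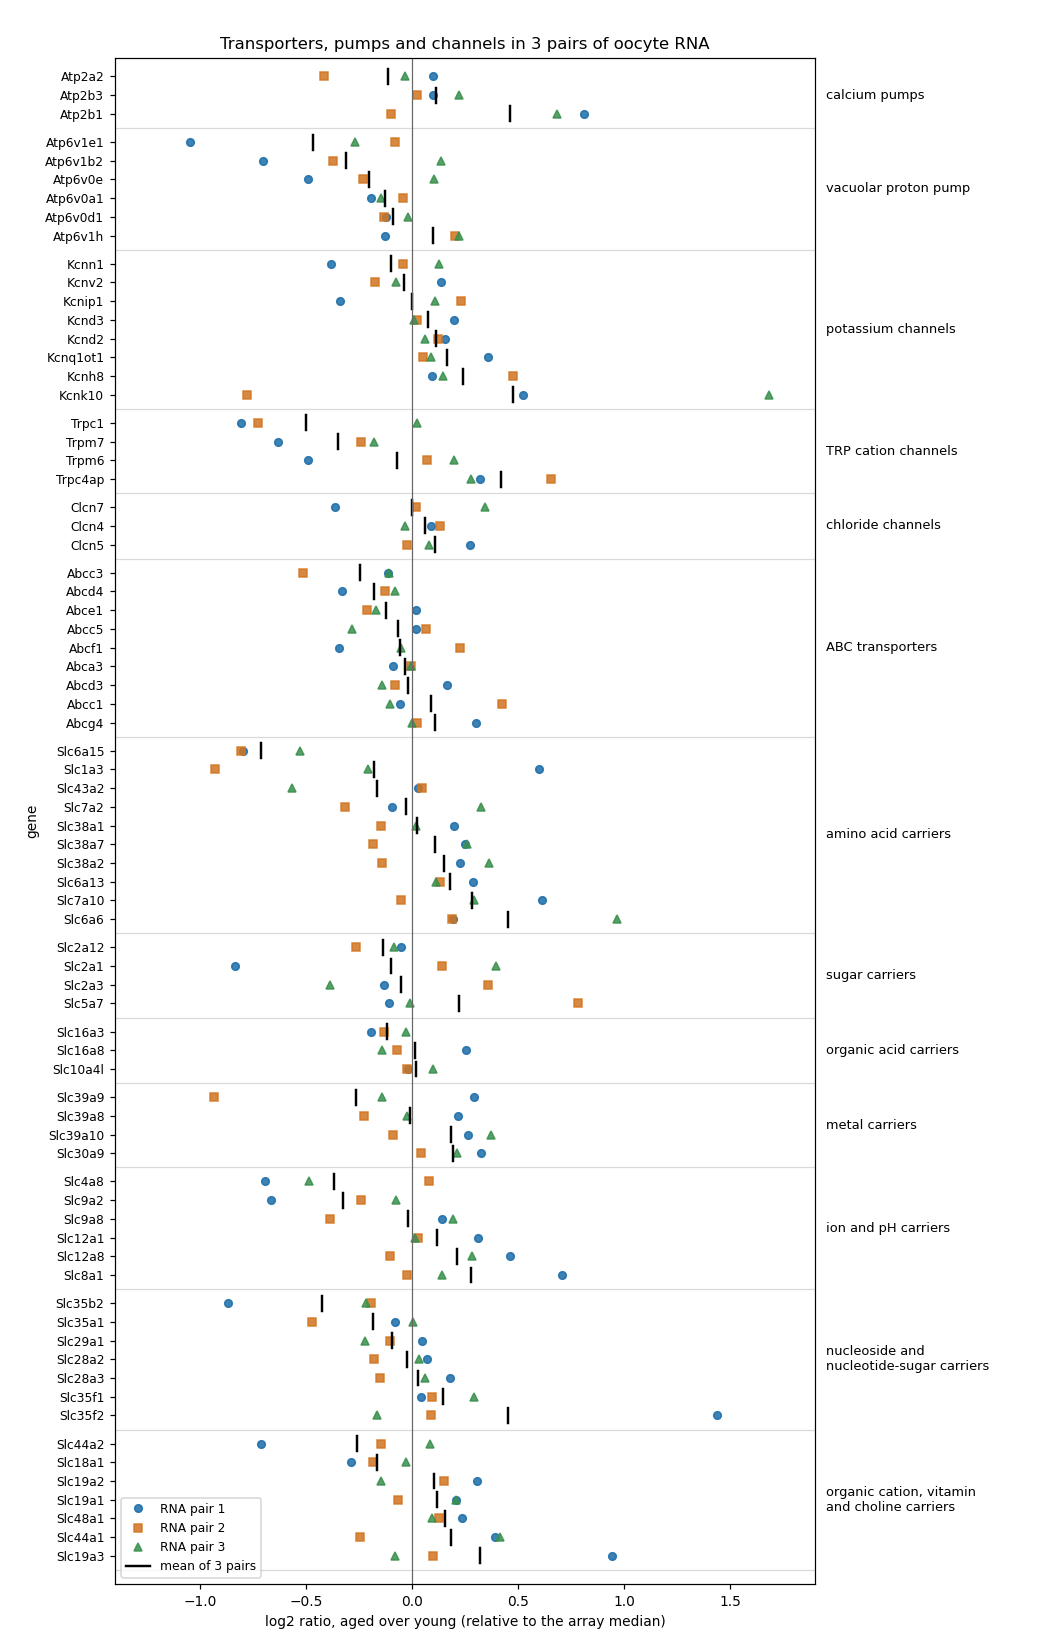
Log2 ratio of aged over young (horizontal axis) for each of the 74 members (rows, grouped by family), with the 3 RNA pairs as points and the mean as a bar. The pair values of most members lie on both sides of 0, and Slc6a15 is the lowest mean at -0.71.

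The amino acid carriers held the member farthest from 0. Slc6a15, a sodium-coupled carrier of branched-chain amino acids and proline studied mostly in brain, lay at -0.80, -0.81 and -0.53 in pairs 1, 2 and 3. Its 12 arrays ran from -1.25 to -0.25 with a median of -0.66, so no array reached 0. The mean was -0.71 ± 0.16 (SD, n = 3) with a 95% interval of -1.05 to -0.37, which is lower in aged RNA under the direction assumed. Its adjusted p was 0.574 in limma's fit of 3 pairs. In a fit of the 12 arrays with the RNA pair as random block, it was 0.0089, and Slc6a15 was then the only member to fall below the threshold, beside 1.32% of the named genes. That fit counts arrays of the same RNAs as separate observations, with an estimated correlation of 0.078 within a pair. Over the other alternatives the adjusted p of Slc6a15 ran from 0.19 to 0.857 and its mean stayed below 0.

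Of the other 9 amino acid carriers, 6 had a mean above 0. Slc6a6, the taurine carrier, lay at 0.19, 0.19 and 0.97 in the 3 pairs, with a mean of 0.45 ± 0.45 (SD, n = 3) and 9 of 12 arrays above 0. All 4 arrays of pair 3 stood above 0, from 0.49 to 1.39, and the other pairs lay on both sides of it. Its 3 probes had means of 0.17, 0.48 and 0.70. The probe at 0.48 had 1 value set to missing, on an array of pair 3. With limit and zero values kept, the mean of Slc6a6 was 0.22. Slc6a13, a carrier of GABA and related amino acids, lay at 0.29, 0.13 and 0.11. Slc38a2, which takes up small neutral amino acids with sodium, had a mean of 0.15 ± 0.26 with arrays from -1.30 to 1.80. Its close relative Slc38a1 lay at 0.02 ± 0.17 and the lysosomal glutamine carrier Slc38a7 at 0.11 ± 0.25. Slc7a10, an exchanger of glycine, serine and other small amino acids, lay at 0.28 ± 0.33. The glutamate carrier Slc1a3 had one of the widest spreads, at 0.60, -0.93 and -0.21, with a mean of -0.18. Slc43a2 lay at -0.16 ± 0.35 and the arginine and lysine carrier Slc7a2 at -0.03 ± 0.32.

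The TRP names gave the other member that was below 0 throughout. Trpm7, a channel for magnesium, zinc and calcium fused to a kinase, lay at -0.63, -0.24 and -0.18 in the 3 pairs, and its 12 arrays ran from -1.57 to -0.01 with a median of -0.22. The mean was -0.35 ± 0.25 (SD, n = 3) with an interval of -0.73 to 0.03, and without pair 1 it was -0.21. A separate probe that lists Trpm7 together with Sppl2a had a mean of 0.11, on the other side of 0. Trpm6, the related magnesium channel, lay at -0.49, 0.07 and 0.20. Trpc1, a channel subunit linked to calcium entry, lay at -0.80, -0.72 and 0.02, and its arrays ran from -2.62 to 1.19.

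Trpc4ap, named for its binding to a TRP channel and known as a substrate adaptor of a ubiquitin ligase, was on the opposite side. It lay at 0.32, 0.65 and 0.28 in the 3 pairs, with a mean of 0.42 ± 0.21 (SD, n = 3), an interval of 0.06 to 0.78 and an adjusted p of 0.716 in limma's fit. Only 7 of its 12 arrays were above 0, and they ran from -0.28 to 1.72. The arrays with aged RNA in Cy3 averaged 0.91 and those with it in Cy5 averaged -0.08, so the dye orientations disagreed in sign. A probe listing both Trpc4ap and Edem2 lay at -0.55, and with such probes counted the mean was -0.07.

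**Figure D3:**
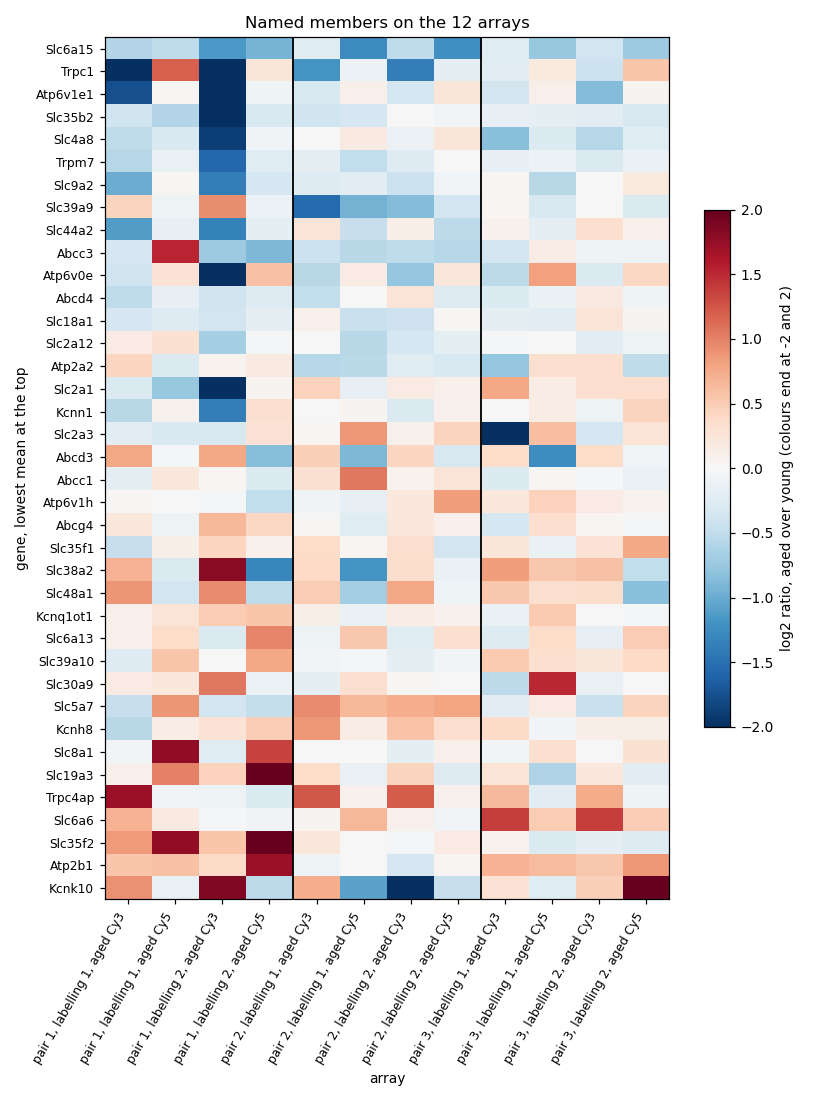
Log2 ratio of aged over young (colour, ending at -2 and 2) for the named members (rows, lowest mean at the top) on the 12 arrays (columns, ordered by pair, labelling and dye). The rows of Slc6a15 and Trpm7 keep 1 colour across all columns, while Trpc4ap is above 0 mainly where the aged RNA carried Cy3, and Kcnk10 has one array at 6.22, beyond the colour scale.

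None of the pumps passed the test. Among 3 calcium pumps, Atp2b1, which expels calcium across the plasma membrane, lay at 0.81, -0.10 and 0.68 in the 3 pairs. Its mean was 0.46 ± 0.49 (SD, n = 3), all arrays of pairs 1 and 3 were above 0, and those of pair 2 ran from -0.34 to 0.03. Pair 2 did not overlap with the other pairs, and the difference among pairs had an adjusted p of 0.0986 in limma. Atp2b3, of the same family, lay at 0.11 ± 0.10, and Atp2a2, which refills the endoplasmic reticulum with calcium, at -0.11 ± 0.27. A probe of Atp2a2 had 1 value set to missing, and with limit and zero values kept the gene's mean was -0.40. Of 6 subunits of the vacuolar proton pump, which acidifies lysosomes and other vesicles, 5 had a mean below 0, with a median of -0.17. The median by pair was -0.34, -0.10 and 0.04, lowest in pair 1, which also holds the array of widest spread. Atp6v1e1, a stalk subunit, lay at -1.05, -0.08 and -0.27 with a mean of -0.46 ± 0.51 (SD, n = 3), and its arrays ran from -2.38 to 0.25. With aged RNA in Cy5 alone Atp6v1e1 was at 0.08. The catalytic-sector subunit Atp6v1b2 lay at -0.31 ± 0.42, the membrane-sector subunits Atp6v0e, Atp6v0a1 and Atp6v0d1 at -0.20 ± 0.30, -0.13 ± 0.08 and -0.09 ± 0.06, and Atp6v1h at 0.10 ± 0.20. Atp6v0e and Atp6v0a1 were below 0 on every array with aged RNA in Cy3 and above 0 on every array with it in Cy5. The part of the ratio that keeps its sign under the dye swap, described below, was above 0 for all 6 subunits. It was above 0 for 1952 of the 3089 named genes. All 9 pump genes had adjusted p-values of 0.716 or above in limma's fit.

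Among the 8 genes named for potassium channels, 5 had a mean above 0, and 4 of these had 1 sign in all pairs. Kcnh8, a voltage-gated channel, lay at 0.10, 0.48 and 0.15 with a mean of 0.24 ± 0.21 (SD, n = 3) and 10 of 12 arrays above 0. Kcnd2 and Kcnd3, which carry fast transient currents, lay at 0.11 ± 0.05 and 0.08 ± 0.10, and their partner Kcnip1 at 0.00 ± 0.30. Kcnq1ot1, the noncoding RNA that silences imprinted neighbours on one parental chromosome, lay at 0.36, 0.05 and 0.09, and its 3 probes lay between 0.12 and 0.21. Kcnk10, a tandem-pore channel, had the highest mean of all members and the widest spread, at 0.52, -0.78 and 1.68. One array of pair 3 read 6.22 while the other 11 lay between -2.32 and 1.84, and without pair 3 the mean was -0.13. The calcium-activated Kcnn1 lay at -0.10 ± 0.26 and the silent subunit Kcnv2 at -0.04 ± 0.16. The chloride family stayed close to 0 on average, with Clcn5 at 0.11 ± 0.15, Clcn4 at 0.06 ± 0.08 and the lysosomal Clcn7 at 0.00 ± 0.35.

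The ABC transporters, which use ATP to move lipids, drugs and conjugates, had 7 of 9 means below 0 and a median of -0.06. The lowest was Abcc3, an exporter of bile acids and glucuronides, at -0.11, -0.52 and -0.11 in the 3 pairs, with a mean of -0.25 ± 0.23 (SD, n = 3) and 10 of 12 arrays below 0. Abcd4, a lysosomal protein needed for cobalamin release, lay at -0.33, -0.13 and -0.08, also with 10 of 12 arrays below 0. Abce1 lay at -0.12 ± 0.12, Abcc5 at -0.07 ± 0.19, Abcf1 at -0.06 ± 0.28, the lipid transporter Abca3 at -0.03 ± 0.05 and the peroxisomal Abcd3 at -0.02 ± 0.16. Above 0 were Abcg4, a sterol transporter, at 0.11 ± 0.17 and Abcc1, an exporter of glutathione conjugates, at 0.09 ± 0.29. Both turned below 0 without centring, Abcc1 to -0.026 and Abcg4 to -0.0066.

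None of the carriers of sugars and organic acids passed the test. Slc2a1, the widespread glucose carrier, lay at -0.83, 0.14 and 0.40 with a mean of -0.10 ± 0.65 (SD, n = 3), and without pair 1 the mean was 0.27. The high-affinity glucose carrier Slc2a3 lay at -0.13, 0.36 and -0.39, and Slc2a12 at -0.13 ± 0.11. Slc16a3 and Slc16a8, carriers of lactate and other monocarboxylates, lay at -0.12 ± 0.08 and 0.01 ± 0.21, and Slc10a4l at 0.02 ± 0.07. Slc5a7, which by its number falls among sugar carriers but moves choline, lay at -0.11, 0.78 and -0.01.

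For metals, Slc39a10, a zinc importer, lay at 0.26, -0.09 and 0.37, and its 3 probes had means of -0.11, 0.04 and 0.62. The distance of 0.735 between them was the widest of any member with more than 1 probe. Slc39a9, of the same family, lay at 0.29, -0.93 and -0.14, Slc39a8 at -0.01 ± 0.22, and Slc30a9 at 0.33, 0.04 and 0.21 with a mean of 0.19 ± 0.14 (SD, n = 3). Among 6 carriers of inorganic ions and acid equivalents, 3 means were above and 3 below 0. Slc4a8, which exchanges sodium and bicarbonate for chloride, lay at -0.69, 0.08 and -0.49, and both of its probes were below 0 at -0.43 and -0.30. Slc9a2, a sodium-proton exchanger, lay at -0.67, -0.24 and -0.07, with a mean of -0.33 ± 0.31 and 8 of 12 arrays below 0. Slc9a8, another sodium-proton exchanger, lay at -0.02 ± 0.32. Slc8a1, the sodium-calcium exchanger, lay at 0.71, -0.02 and 0.14, while Slc12a8 and Slc12a1 lay at 0.21 ± 0.29 and 0.12 ± 0.17.

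Among 7 genes named as carriers of nucleosides and nucleotide sugars, Slc35b2 and Slc35f2 lay farthest from 0, in opposite directions. Slc35b2, which brings the sulfate donor PAPS into the Golgi, lay at -0.87, -0.19 and -0.22 with a mean of -0.43 ± 0.38 (SD, n = 3), and 11 of its 12 arrays were below 0. Its interval ran from -0.89 to 0.04. Slc35f1 lay at 0.14 ± 0.13, and the sialic acid carrier Slc35a1 at -0.18 ± 0.26. The nucleoside carriers Slc28a3, Slc28a2 and Slc29a1 lay at 0.03 ± 0.17, -0.03 ± 0.13 and -0.09 ± 0.13. Among the carriers of choline, vitamins, amines and heme, 5 of 7 means were above 0. The thiamine carrier Slc19a3 lay at 0.94, 0.10 and -0.08, its relative Slc19a2 at 0.10 ± 0.23, and the folate carrier Slc19a1 at 0.12 ± 0.16. The heme carrier Slc48a1 lay at 0.24, 0.13 and 0.10, and the choline carrier Slc44a1 at 0.19 ± 0.37. On the other side, Slc44a2 lay at -0.26 ± 0.41 and the vesicular amine carrier Slc18a1 at -0.17 ± 0.13.

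Whether the 3 RNA pairs differed from one another was tested with limma on the 12 arrays, with dye orientation in the model. Slc35f2 was the single member of 72 to pass, at an adjusted p of 0.0215, beside 5.19% of the named genes. Its pairs lay at 1.44, 0.09 and -0.16. The 4 arrays of pair 1 read 0.85, 1.77, 0.55 and 2.58, and the 8 arrays of the other pairs lay between -0.27 and 0.22, so that pair 1 did not overlap with them. The SD among its arrays was 0.92 in pair 1, against 0.12 and 0.16 in the others. The difference did not pass without centring, with the arrays scaled to one spread, with either labelling alone, with aged RNA in Cy3 alone, or with any one of the 3 pairs left out. Its mean over the 3 pairs was 0.45 ± 0.86 (SD, n = 3), and -0.04 without pair 1. The next members were Slc39a9 and Atp2b1, at adjusted p-values of 0.0623 and 0.0986. The arrays of a pair are technical, so this compares the RNAs used and not groups of animals.

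Agreement was compared between labellings, dye orientations and pairs. Over the members, the turned values of the 2 labellings, from the same RNAs, correlated at 0.59, 0.45 and 0.21 in pairs 1, 2 and 3. Over all named genes they correlated at 0.65, 0.68 and 0.42. The labellings had the same sign in 53 of 74, 50 of 73 and 49 of 73 members, beside 68.8%, 74.2% and 62.1% of the named genes. The turned values of the 2 dye orientations correlated at -0.07, 0.08 and -0.08, and shared their sign in 35, 33 and 31 of 74 members. Over all named genes the last share was 44.6%, 49.3% and 44%. Between pairs the members' values correlated at 0.09 for pairs 1 and 2, 0.27 for pairs 1 and 3, and -0.03 for pairs 2 and 3. Over all named genes these were 0.19, 0.24 and 0.19. The points of each of these correlations are genes on shared arrays and are not independent. The median SD between pairs was 0.237, over pair values that each average the arrays of a pair. The median SD among arrays within a pair was 0.408, over single arrays of both dye orientations. These 2 SDs are unlike measures, so they do not show which source of spread was larger.

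Because each pair was run in both dye orientations, a ratio can be split into the part that changes sign with the dyes, given above, and the part that keeps it. The second is a dye effect if the deposited values are dye ratios, and the age difference if the values were already turned. It was as large as the first: its median size over members was 0.172, beside 0.132, and it was the larger in 36 of 74. None of the members passed limma's adjusted test in this part, and of all rows 0% did. At an unadjusted p under 0.05 there were 16 members, 6 above and 10 below 0, beside 19.1% of the named genes. Abcd3 had the lowest adjusted p of 0.0992, with -0.60, -0.53 and -0.51 in the 3 pairs. Trpc4ap lay at -0.49 ± 0.08, Atp6v0e at 0.62 ± 0.27 and Trpc1 at 0.81 ± 0.62. Between pairs 2 and 3 this part correlated at 0.65 over the members, beside 0.75 over the named genes. It correlated at 0.38 between pairs 1 and 2 and at 0.25 between pairs 1 and 3, beside 0.30 and 0.35 over the named genes. In pairs 2 and 3 alone, 11 members passed the adjusted test, beside 16.4% of the named genes. These were Trpc1, Atp6v0a1 and Atp6v0e above 0, and Abca3, Abcd3, Kcnv2, Slc38a2, Slc39a8, Slc48a1, Slc7a10 and Trpc4ap below. Slc6a15 lay at 0.07, -0.43 and -0.21 in this part, smaller in size than its turned part in each pair.

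**Figure D4:**
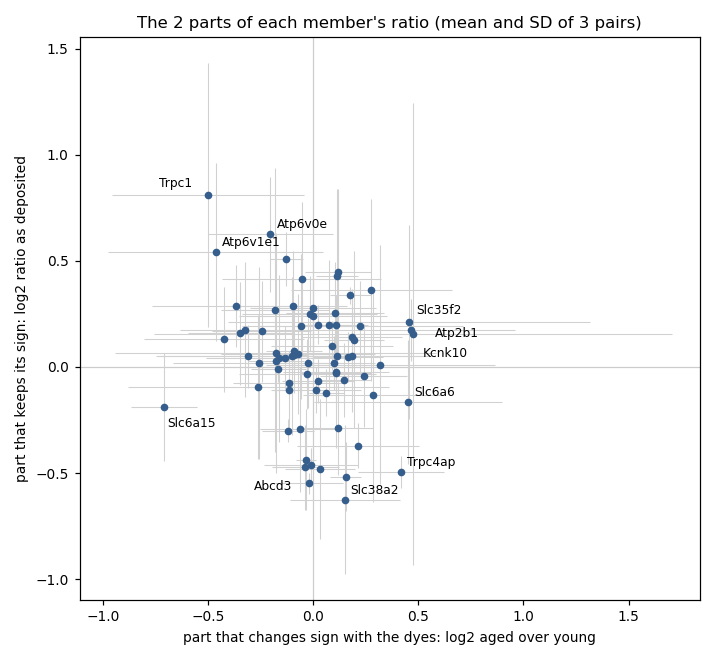
For each of the 74 members, the part of the log2 ratio that changes sign with the dyes (horizontal axis, aged over young) against the part that keeps its sign (vertical axis), with the mean as a point and the SD of 3 pairs as lines. Slc6a15 stands alone at -0.71 on the horizontal axis near -0.19 on the vertical, while Trpc4ap, Trpc1, Atp6v0e and Atp6v1e1 lie at least as far from 0 on the vertical axis.

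Different probes of a member did not always give the same sign. Of 17 members with more than 1 probe, 9 had all probe means on one side of 0, and the median distance between the lowest and highest probe was 0.275. Slc6a6, Kcnq1ot1, Slc4a8, Slc18a1 and Slc7a10 were among those on one side. The probes of Slc18a1 had means of -0.33 and -0.0056, but opposite signs in each pair. Abcf1, Slc44a1, Slc28a3 and Slc39a10 were among those on both. A further 63 probes listed a member among several genes, and 34 of their means had the sign of the member's own. Slc6a15, Slc35f2 and Trpc4ap rested on 1 probe each.

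**Figure D5:**
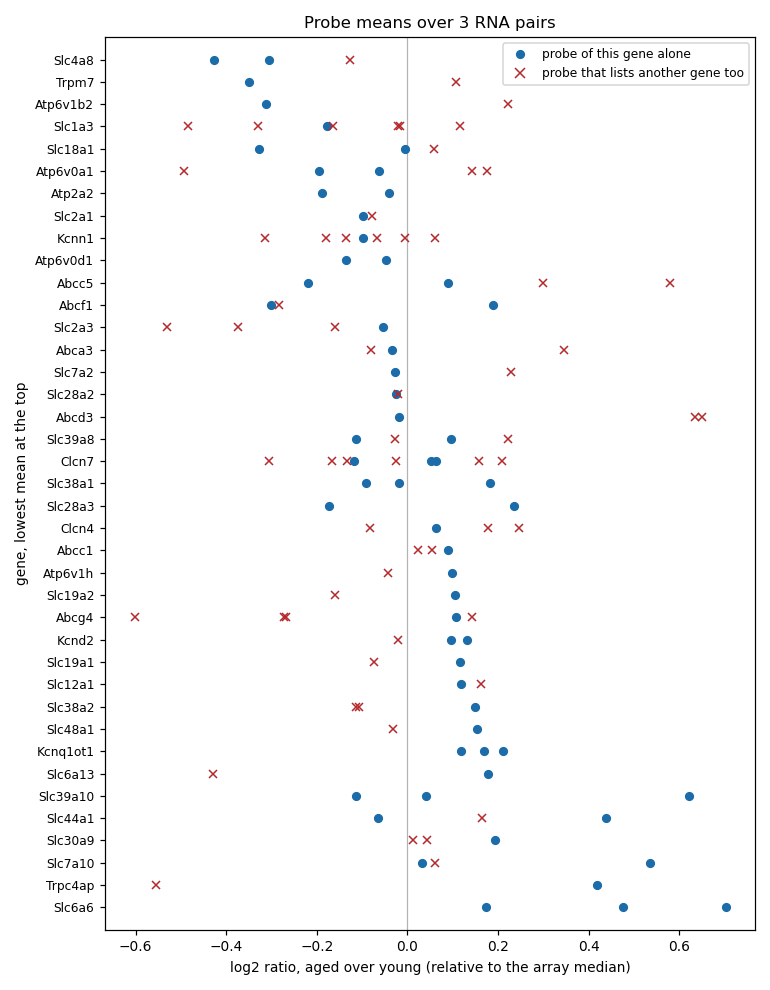
Mean log2 ratio of aged over young (horizontal axis, mean of 3 RNA pairs) of single probes (rows, lowest mean at the top), for the members that have several probes or that share a probe with another gene, with circles for a member's own probes and crosses for shared ones. Probes of one gene lie up to 0.735 apart, for Slc39a10.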

How the data were processed

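RNA from aged and young mouse oocytes was compared on 12 two-colour arrays, grouped into 3 RNA pairs by the RNA numbers in the labels. The authors deposited 1 value per probe and array, read here as a log10 ratio from its range, with limits at -2 and 2. Values on the limits (1215) and values of exactly 0 (513), 0.638% of all, were set to missing after they had been seen. Array medians ran from -0.316 to 0.0473 on the log10 scale. The sources used here do not give the direction, scaling or centring of the deposited ratios, nor scanner software or dye normalization.

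Values were converted to log2, centred per array on the median and turned to aged over young. Arrays of one orientation, then both orientations, were averaged per pair. Of 22575 probes, 4262 had 1 gene symbol in GEO's platform annotation, 6822 had several and 11491 none. Single-symbol probes were averaged per gene, and others stayed rows of their own. All 74 members matched RefSeq genes of GRCm38.p6 by gene ID. Missing values affected 4 of the members' 1152, so Slc1a3 and Slc43a2 had 11 arrays and were left out of fits on 12.

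The 3 pair values of 21370 rows were tested against 0 with limma 3.58.1 (lmFit, eBayes, two-sided) in R 4.3.3 and version 1.17.8 of data.table, adjusted by Benjamini-Hochberg over all rows at 0.05. The part that keeps its sign was tested likewise, and differences among pairs by limma's F test on 12 arrays with dye orientation in the model. The script was tested on simulated data. Figures used matplotlib 3.10.9.

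Members, families, related genes and markers were chosen with earlier results of these data known. Genes named by rule were the 8 above and 8 below 0 with the smallest p among members of 1 sign, 8 measured genes of a list of 30, the 3 leading members of each further test, and each family's highest and lowest member. Other members are given for completeness. Alternatives covered centring, scaling, limits, single labellings and orientations, and values read as already aged over young. They also covered replicates left out, a random block, probe rules, filters and robust variances. The opposite dye convention, which turns every sign, was not among them. Each array holds both groups, so the test of the 3 pair values is a paired one.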

Additional observations from a re-analysis of the deposited data

Results flagged for a closer look

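Slc35f2 differed between RNA pairs at an adjusted p of 0.0215 in limma's test on 12 arrays. Pair 1 lay at 1.44, and pairs 2 and 3 at 0.09 and -0.16. The SD among the 4 arrays of pair 1 was 0.92, against 0.12 and 0.16 in the other pairs, and pair 1 holds the array of widest spread. Without that array, a comparison chosen after seeing the data, Slc35f2 still passed. It did not pass without centring, with the arrays scaled to one spread, with either labelling alone, with aged RNA in Cy3 alone, or with any one of the 3 pairs left out. Before centring, all 4 arrays of pair 1 had medians farther from 0 than the arrays of pairs 2 and 3. Whether the RNA or the arrays of pair 1 set the Slc35f2 difference was not tested.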

How the results depend on the processing

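The members' direction is not settled by these arrays. Over 19 alternatives, 38 named members gave 711 values, of which 58 had the opposite sign and 1 passed the adjusted threshold (Slc6a15, with the pair as a random block). In 7 genes, Slc6a15, Atp2b1, Slc39a10, Slc30a9, Kcnq1ot1, Slc18a1 and Slc19a3, no alternative turned the sign. The opposite dye convention, which turns every sign, was not one of the alternatives. Rows called at an adjusted p under 0.05, 0 as reported, numbered 13 without centring, 231 with the random block and 1 over named genes only, and 0 to 42 with single replicates left out. Members called numbered 1 with the random block, beside 1.32% of the named genes. The members' median was -0.12 without centring. Members at an unadjusted p under 0.05, 2 as reported, numbered 1 with labelling 2 only and 10 with either orientation only. They numbered 16 when the values were read as already aged over young, beside 19.1% of the named genes. They numbered 10 with the random block, 4 over named genes only, and 2 to 5 with single replicates left out. Members that differed between pairs, 1 as reported, numbered 2 without centring (Atp6v1e1 and Slc5a7), 0 with arrays scaled, 0 with either labelling only, 0 with aged RNA in Cy3 only, 3 with 1 probe per gene (Slc35f2, Slc44a1 and Slc4a8), 2 with the rows of widest spread left out (Slc35f2 and Slc39a9), and 0 to 2 with single replicates left out (Atp2b1 and Trpc1 without replicate 1). Members called in the part that keeps its sign numbered 0 to 11 with single replicates left out. The 11 were without replicate 1, beside 16.4% of the named genes there. For the other counts of members past a threshold, no share over the named genes was computed under the alternatives. Those counts are not read as results about the members. Members below 0 numbered 39 as reported, 53 without centring and 27 under the already-turned reading.

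Opposite signs came with aged RNA in Cy3 only for Slc6a13 at -0.16, Abcc1 at -0.012, Abcd3 at 0.53 and Slc8a1 at -0.087, and with aged RNA in Cy5 only for Trpc4ap at -0.076, Slc48a1 at -0.36, Atp6v1e1 at 0.078, Slc2a3 at 0.36, Slc38a2 at -0.48, Atp6v0e at 0.42, Kcnn1 at 0.19 and Trpc1 at 0.31. With labelling 1 only they came for Slc2a1 at 0.029 and Abcg4 at -0.020, and with labelling 2 only for Slc2a3 at 0.072, Abcc1 at -0.014 and Abcd3 at 0.058. Without centring they came for Abcc1 at -0.026, Abcg4 at -0.0066 and Atp6v1h at -0.016. When the values were read as already aged over young, Trpc4ap at -0.49, Slc6a6 at -0.17, Kcnh8 at -0.041, Slc48a1 at -0.52, Slc35f1 at -0.059, Trpm7 at 0.16, Slc35b2 at 0.13, Atp6v1e1 at 0.54, Slc9a2 at 0.18, Abcc3 at 0.17, Abcd4 at 0.027, Slc2a1 at 0.051, Slc2a3 at 0.42, Slc38a2 at -0.63, Atp6v0e at 0.62, Abcg4 at -0.027, Kcnn1 at 0.29, Slc4a8 at 0.29, Slc44a2 at 0.019, Slc2a12 at 0.045 and Trpc1 at 0.81 lay on the other side. With several-gene probes counted, they came for Trpc4ap at -0.068, Slc6a13 at -0.13, Slc38a2 at -0.024, Abcd3 at 0.42 and Abcg4 at -0.18. With single replicates left out, the means ran across 0 for Abcc1 from -0.079 to 0.18, Abcd3 from -0.11 to 0.043, Atp2a2 from -0.22 to 0.034, Kcnk10 from -0.13 to 1.10, Kcnn1 from -0.21 to 0.043, Slc2a1 from -0.35 to 0.27, Slc2a3 from -0.26 to 0.11, Slc35f2 from -0.037 to 0.76, Slc39a9 from -0.54 to 0.075 and Slc5a7 from -0.060 to 0.39. Without the array of widest spread, chosen after seeing the data, Slc2a1 lay at 0.073. The already-turned values are the part that keeps its sign, and the single-orientation values hold both parts. The cause of the other changes was not tested. Each ratio sets an aged RNA against its paired young RNA, so the test over 3 pairs is itself paired. Signal over background is unknown, so dim probes could not be left out, and 3 pairs give intervals of about 0.374 to either side of a mean.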

Other observations

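Genes of membrane transport whose names fall outside the rule were read from a list chosen with earlier results of these data known. Of 32 such genes, 15 had a mean above 0 and 17 below, and none passed limma's adjusted test over all rows, while 3 had an unadjusted p under 0.05, which is 9.38%, beside 7.67% of the named genes. Gjc1, a gap junction protein, lay at -0.51, -0.57 and -0.30 in the 3 pairs, with 8 of 12 arrays below 0. Gja1, which joins cumulus cells to one another, lay at 0.27, -0.35 and 0.36. Slco3a1, an organic anion carrier, lay at 0.35, 0.31 and 0.59 and was above 0 on 12 of 12 arrays. Mfsd14b lay at -0.69, -0.79 and -0.15, and its relative Mfsd14a at -0.75, -0.58 and 0.17.

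The 4 voltage-gated or cyclic nucleotide-gated channel genes measured were all above 0 on average, beside 1547 of the 3089 named genes. They ran from 0.05 for Cacng2 to 0.22 for Cnga1. Only 2 of the 4 had 1 sign in all 3 pairs, beside 32.7% of the named genes. Cacna1a lay at 0.84, -0.40 and -0.04, with 9 of 12 arrays below 0. The 4 flippases and pump regulators (Atp11a, Atp11b, Atp8a1 and Fxyd6) were all below on average, from -0.30 to -0.06, beside 49.9% of the named genes. None of them had 1 sign in all 3 pairs: Atp11a, Atp11b and Atp8a1 were above 0 in pair 3, and Fxyd6 in pair 2. Among calcium store genes, Stim2, a calcium sensor of the endoplasmic reticulum, lay at -0.20, -0.16 and -0.02 with 10 of 12 arrays below 0, and the ryanodine receptor Ryr2 at 0.11, 0.47 and -0.18. Lrrc8e, a subunit of volume-regulated anion channels, differed between pairs at an adjusted p of 0.0187 in limma's test on 12 arrays, with -1.34, 0.13 and -0.61. It was 1 of the 32, which is 3.12%, beside 5.19% of the named genes.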
